A study of Mus musculus and Rattus norvegicus with 6 samples.

Results

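The family of miR-130 and miR-301 comprised every row of the deposited count tables named miR-130 or miR-301, with any letter and either arm. These were 8 of the 764 names in the rat table and 9 of the 1915 names in the mouse table, and the 8 rat names were all among the 542 names that both tables share. The family was singled out because miR-130b-5p was lower in rat, so the differences between rat and mouse given below are a description of the values that chose it and carry no test. Small RNA was sequenced from retinas of wild-type Sprague Dawley rats and wild-type C57BL/6 mice, both 9 weeks old, with 3 libraries per species (r1, r2 and r4 from rat, m1, m3 and m4 from mouse). Strain changed together with species and each species was counted in a table of its own, so species, strain and table cannot be told apart.

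A miRNA is cut from one side of an RNA hairpin, the 5p or the 3p arm, and pairs with messenger RNAs mainly through its seed, bases 2 to 8. The 3p products of this family share 1 seed and are usually treated as the guide strands. They are known to repress Pparg, a regulator of fat and vascular genes, and in human endothelial cells miR-130a lowers the anti-angiogenic homeobox genes GAX and HOXA5. The 5p products come from the opposite strand of the same hairpins and carry other seeds.

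Of the 9 names, 8 matched a mature mouse sequence in RefSeq (build GRCm38.p6), and miR-301b-3p is given by name only. Rat sequences were not used here, so a name common to both tables was matched as a name. The mature sequences are shown with the seed in capitals, because the seeds separate the arms whose counts are compared below.
miR-130a-3p: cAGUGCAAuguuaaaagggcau
miR-130b-3p: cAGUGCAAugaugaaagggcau
miR-301a-3p: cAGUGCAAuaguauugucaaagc
miR-130c: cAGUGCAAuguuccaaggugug
miR-130a-5p: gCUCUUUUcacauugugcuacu
miR-130b-5p: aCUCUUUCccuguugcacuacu
miR-301a-5p: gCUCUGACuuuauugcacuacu
miR-301b-5p: gCUCUGACuagguugcacuacu

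The 3p sequences and miR-130c shared the seed AGUGCAA. The 5p sequences fell into 3 seeds: CUCUUUU for miR-130a-5p, CUCUUUC for miR-130b-5p and CUCUGAC for both miR-301a-5p and miR-301b-5p. In the mouse table of RefSeq only 1 other mature miRNA, miR-7014-3p, had the seed of miR-130b-5p. The sequences of miR-130a-3p and miR-130b-3p differed at 2 of 22 bases, U11A and A13G, counted from the 5′ end with the miR-130a-3p base first. The sequences of miR-301a-5p and miR-301b-5p differed at 3 of 22 bases (U10A, U11G and A12G, miR-301a-5p first), whereas miR-130b-5p differed from each of the other 5p sequences at 6 or 7 bases. How reads that match 2 names were counted is not stated in the sources read here. The split between miR-130a-3p and miR-130b-3p and that between miR-301a-5p and miR-301b-5p may therefore be uncertain. The 3p products of miR-301a and miR-301b could not be compared, since miR-301b-3p had no sequence. These comparisons cover mouse sequences only, and the effect of read assignment on any count, that of miR-130b-5p included, was not tested.

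In the mouse genome (GRCm38.p6) the hairpins lay at 4 places. Mir130b (chr16:17124061-17124142, minus strand) and Mir301b (chr16:17124400-17124496, minus strand) were 257 bases apart. Both lay inside the protein-coding gene 2610318N02Rik on the same strand and overlapped none of its exons in GENCODE M21. Mir301, the miR-301a hairpin (chr11:87113004-87113089, plus strand), lay in the same way inside Ska2, a gene of the spindle and kinetochore. Mir130a (chr2:84741115-84741178, minus strand) overlapped no other annotated gene, and Mir130c (chr9:53400805-53400886, minus strand) lay opposite an exon of Kdelc2. The hairpins of miR-130b and miR-301a are shown with both mature arms in capitals, the first of them the 5p arm, since these were the hairpins in which the 5p arm held most counts.
miR-130b hairpin: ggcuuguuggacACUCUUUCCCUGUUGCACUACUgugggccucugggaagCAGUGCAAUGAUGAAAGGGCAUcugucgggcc
miR-301a hairpin: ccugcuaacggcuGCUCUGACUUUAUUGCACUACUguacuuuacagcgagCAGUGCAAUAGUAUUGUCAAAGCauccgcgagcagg

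The libraries held 24169628 to 28198305 counts in rat and 27843590 to 30514632 counts in mouse. Retinal miRNAs fixed as markers (miR-183-5p, miR-182, miR-96-5p, miR-124-3p, miR-9, miR-204-5p and miR-211-5p) were all found and summed to between 48.1% and 56.4% of counts in rat libraries and between 52.3% and 54.8% in mouse libraries. Rat library r1 stood apart: across the 398 miRNAs its Pearson r of log2(CPM + 1) was 0.986 with r2 and 0.988 with r4, whereas the pairs without r1 within a species had 0.998 or 0.999. Levels below are CPM, counts scaled to a common library total, of the names shared by both tables after TMM scaling, with the SD over 3 libraries. Nothing in the labels says that each library came from a separate animal, so the spread between libraries may be technical in part. In whole retina, fewer cells holding a miRNA and less of it per cell cannot be told apart.

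The miR-130b hairpin gave the largest fitted difference of the family between the species. The name miR-130b-5p (rno-miR-130b-5p in the rat table, mmu-miR-130b-5p in the mouse table) had 86, 270 and 247 counts in rat libraries r1, r2 and r4, against 2029, 2221 and 2166 in mouse libraries m1, m3 and m4. These correspond to 9.56 ± 2.50 CPM in rat and 114 ± 3.79 CPM in mouse (SD, n = 3 each). Every rat library lay below every mouse library, and r1 was the lowest of the rat libraries. The log2 difference, rat minus mouse, was -3.57 ± 0.22 (SE), or -3.39 without r1, and only 8 of the 398 miRNAs with enough counts to be fitted had a more negative one. In the ranking of each table by count, miR-130b-5p stood between 311 and 343 of the 764 rat names and between 164 and 170 of the 1915 mouse names.

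The 3p arm of the same hairpin, miR-130b-3p, carries the family seed and was lower in rat as well. Counts of rno-miR-130b-3p were 13, 26 and 37 in r1, r2 and r4, against 80, 71 and 81 of mmu-miR-130b-3p in m1, m3 and m4. The levels were 1.22 ± 0.221 CPM in rat and 4.14 ± 0.485 CPM in mouse (SD, n = 3 each), again with no overlap between the species. Its log2 difference was -1.73 ± 0.25 (SE), or -1.65 without r1, smaller in size than that of the 5p arm. Of the 140 hairpins with both arms in the fit, 13 (9.29%), miR-130b among them, had both arms called lower (edgeR adjusted p under 0.05). Because miR-130b was chosen on this contrast, nothing is read from its calls.

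The neighbouring hairpin of miR-301b was close to the limit of detection. The 3 rat libraries together held 5 counts of miR-301b-3p, or 0.0644 CPM of the whole table (exact 95% Poisson interval 0.0209 to 0.150), against 32 counts of mmu-miR-301b-3p in the 3 mouse libraries, or 0.370 CPM (0.253 to 0.522). For miR-301b-5p the sums were 4 counts in rat, or 0.0515 CPM (0.0140 to 0.132), and 18 counts in mouse, or 0.208 CPM (0.123 to 0.329). Both products of miR-301b were thus lower in rat in every library, with intervals that overlap for the 5p product. These intervals cover counting error only, since copies made by PCR are counted as separate reads. Neither name had enough counts to enter the fit.

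The paralogs on other chromosomes lay at similar levels in both species. The most abundant 3p member, miR-130a-3p, had 496, 890 and 895 counts in r1, r2 and r4, against 601, 789 and 668 of mmu-miR-130a-3p in m1, m3 and m4. This gave 38.3 ± 2.37 CPM in rat and 36.5 ± 3.69 CPM in mouse (SD, n = 3 each), and the libraries of the species overlapped. The log2 difference of miR-130a-3p was 0.07 ± 0.16 (SE), or 0.04 without r1. It was 0.41 with totals of the shared names and 0.30 with those of the whole tables. Its partner arm miR-130a-5p had 7, 12 and 21 counts in the rat libraries and 12, 9 and 6 in the mouse libraries, also overlapping, with a log2 difference of 0.44 ± 0.40 (SE). In no mouse library did miR-130c have a count, which allows at most 0.108 CPM in the shallowest of them.

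From the Ska2 intron, miR-301a-5p had 227, 579 and 579 counts in r1, r2 and r4, against 484, 565 and 521 in m1, m3 and m4. The levels were 22.3 ± 3.69 CPM in rat and 27.9 ± 1.35 CPM in mouse (SD, n = 3 each), without overlap between the species on this scale. The 3p product miR-301a-3p had 50, 94 and 120 counts in rat and 85, 121 and 92 (mmu-miR-301a-3p) in mouse, and its libraries overlapped at 4.32 ± 0.397 CPM in rat and 5.28 ± 0.844 CPM in mouse (SD, n = 3 each). The log2 differences were -0.32 ± 0.18 for the 5p product and -0.29 ± 0.22 for the 3p product (SE), or -0.20 and -0.24 without r1. Scaled by the totals of the shared names alone they were 0.06 and 0.08, so the direction of the miR-301a difference depends on the scaling.

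**Figure D1:**
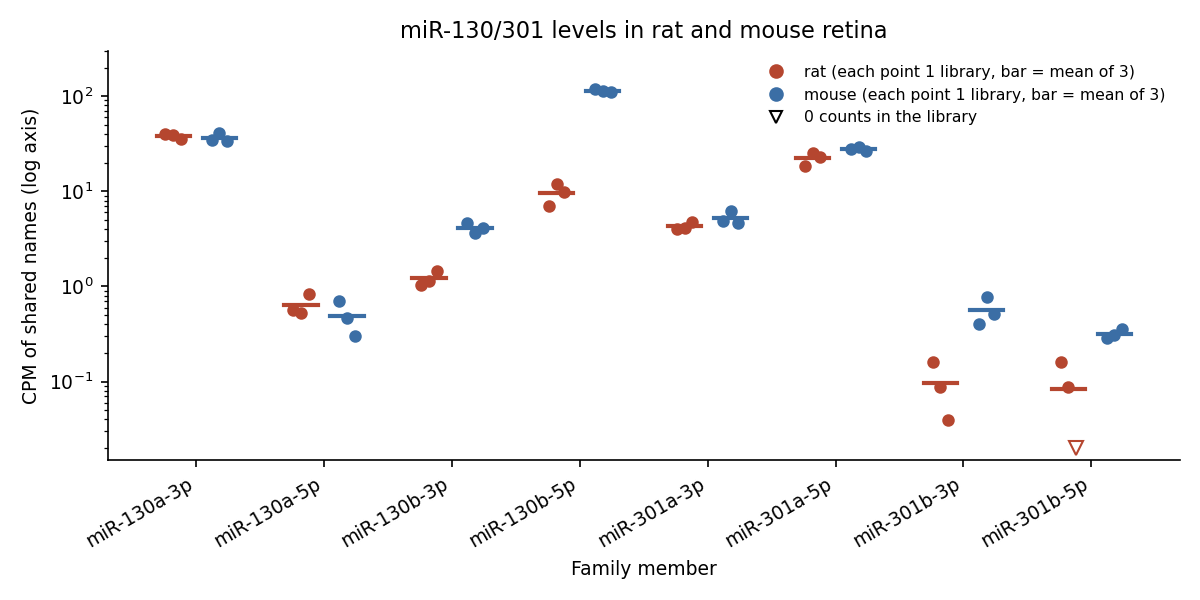
Level of each family member in CPM of the shared names on a log axis, with 1 point per library, a bar at the mean of 3 libraries, rat left of mouse, and an open triangle for a library with 0 counts. The 3 rat libraries lie below the 3 mouse libraries for both arms of miR-130b and of miR-301b, and narrowly for miR-301a-5p. Those of miR-130a-3p, near 38.3 CPM in rat and 36.5 CPM in mouse, overlap. Over all 398 fitted miRNAs, 59.8% did not overlap between the species.

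Of the 8 shared names, 6 could be fitted. The median log2 difference of the 6 was -0.30, beside 0.08 over all 398 miRNAs, and 2 of the 6, the arms of miR-130b, met an edgeR adjusted p under 0.05, both in the lower direction. Over all miRNAs 24.4% were called lower and 25.6% higher in rat, 50% in all, and 51.3% of the calls were higher. The libraries of the species did not overlap for 3 of the 6 members and for 59.8% of all miRNAs. Since the members were chosen on this contrast, nothing is read from these shares. Library totals of the shared names, in place of TMM, raised the median of all miRNAs by 0.36 (log2) and the share of higher calls to 74.7%, and totals of the whole tables raised them by 0.25 and to 70.5%.

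**Figure D2:**
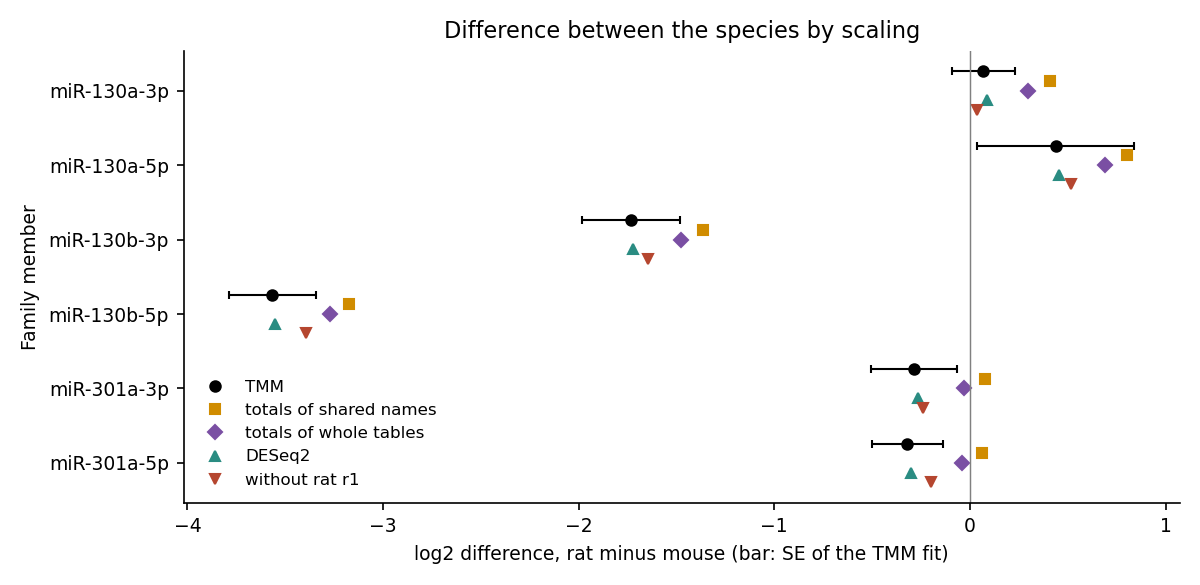
Log2 difference, rat minus mouse, of the 6 fitted members under TMM scaling with its SE, under totals of the shared names, totals of the whole tables and DESeq2, and without rat library r1. The points of miR-130b-5p stay between -3.57 and -3.17, those of miR-130b-3p are also below 0 throughout, and those of miR-301a lie on both sides of 0.

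Ratios within a library do not depend on the scaling. In rat libraries miR-130b-5p had 0.379 to 0.466 times the counts of miR-301a-5p, against 3.93 to 4.19 times in mouse libraries. Relative to miR-130a-3p, miR-130b-5p had 0.173 to 0.303 times the counts in rat libraries and 2.81 to 3.38 times in mouse libraries. The 3p arm of miR-130b had 0.0262 to 0.0413 times the counts of miR-130a-3p in rat libraries and 0.0900 to 0.133 times in mouse libraries. The ratio of miR-301a-5p to miR-130a-3p was 0.458 to 0.651 in rat and 0.716 to 0.805 in mouse. Each of these 4 ratios was lower in every rat library than in any mouse library, and the 2 ratios of miR-130b-5p lay below 1 in rat and above 1 in mouse. Ratios with an arm of miR-130b hold the hairpin chosen for its fall in rat. Of single miRNAs 59.8% did not overlap between the species, and no such share was computed for ratios. Nothing is therefore read from the separation of these ratios.

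The order of the members therefore differed between the tables. By mean CPM the rat order was miR-130a-3p, miR-301a-5p, miR-130b-5p, miR-301a-3p, miR-130b-3p, miR-130a-5p, miR-301b-3p and miR-301b-5p. The last 2 overlapped between libraries and no other neighbours did. In mouse miR-130b-5p came first, followed by miR-130a-3p, miR-301a-5p, miR-301a-3p, miR-130b-3p, miR-301b-3p, miR-130a-5p and miR-301b-5p. There miR-301b-3p overlapped miR-130a-5p, and miR-130a-5p overlapped miR-301b-5p, while miR-301b-3p lay above miR-301b-5p in every library. Ligation and amplification differ between small RNAs, so an order of counts need not be an order of molecules.

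Of all family counts, miR-130b-5p held 12.4% ± 2.39 in rat and 60.3% ± 1.58 in mouse (SD, n = 3 each). The largest share in rat was that of miR-130a-3p, at 50.2% ± 5.13, against 19.3% ± 1.35 in mouse. The 5p arms together held 42.4% ± 5.15 of family counts in rat and 75.5% ± 1.50 in mouse. The summed 3p products, which share the family seed, stood at 33.5 ± 9.03 CPM of the whole table in rat (38.7 without r1) and 30.2 ± 2.44 in mouse (SD, n = 3 each). The difference lay within the spread of the rat libraries, of which r1 lay below and r2 and r4 above all mouse libraries. No sum per library was computed on the TMM scale. On that scale miR-130a-3p stood at 38.3 CPM in rat and 36.5 in mouse, while the other 3p members had lower means in rat. Among these were miR-301a-3p, at 4.32 in rat and 5.28 in mouse, and miR-130b-3p, at 1.22 and 4.14. By these means the 3p products together lay lower in rat, so the direction of the difference in the sum depends on the scaling. Within this 3p sum miR-130a-3p made up 87.1% ± 1.85 in rat and 78.5% ± 0.734 in mouse, and miR-130b-3p made up 2.80% ± 0.631 in rat and 9.00% ± 1.67 in mouse. The summed 5p products stood at 25.8 ± 11.0 CPM of the whole table in rat and 92.8 ± 2.62 in mouse (SD, n = 3 each).

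**Figure D3:**
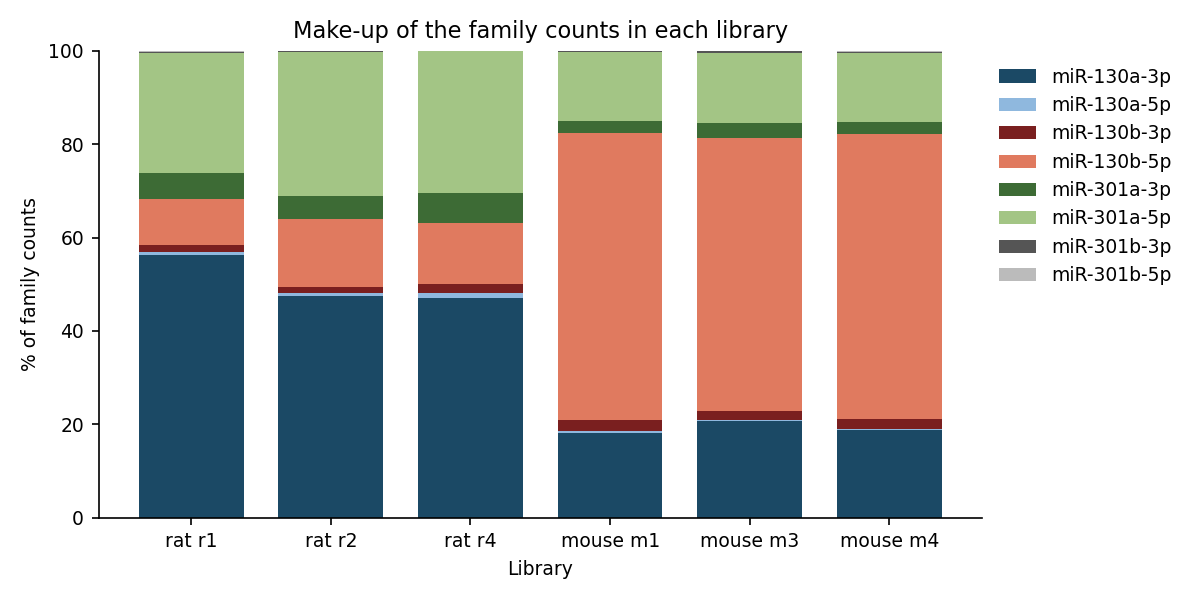
Share of each member in the family counts of each library, in percent, as stacked bars with the rat libraries left of the mouse libraries. The segment of miR-130b-5p averages 12.4% in rat and 60.3% in mouse, and that of miR-130a-3p averages 50.2% in rat and 19.3% in mouse.

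Which arm held more counts differed between the hairpins. For miR-130a nearly all counts were on the 3p arm: the 5p share was 1.67% ± 0.539 in rat and 1.33% ± 0.560 in mouse (SD, n = 3 each). For miR-301a the 5p arm dominated, with 81.9%, 86.0% and 82.8% of counts in r1, r2 and r4 and 85.1%, 82.4% and 85.0% in m1, m3 and m4. Tested within a species, which does not use the difference between the species, the log2 ratio of 5p to 3p was -5.86 ± 0.24 in rat and -6.22 ± 0.26 in mouse for miR-130a (SE; limma adjusted p = 5.99e-05 and 0.000102). For miR-301a it was 2.35 ± 0.20 in rat and 2.41 ± 0.11 in mouse (SE; limma adjusted p = 0.000462 and 0.000119). All 3 libraries of each species had more 3p than 5p counts for miR-130a and more 5p than 3p counts for miR-301a. One arm exceeded the other at this threshold in 93.5% of 201 hairpins in rat and 94.8% of 269 in mouse, the 5p arm in 47.8% and 49.4% and the 3p arm in 45.8% and 45.4%, so an unequal pair of arms is the usual case.

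The 5p arm also held most counts of miR-130b, although the 3p arm is the one usually called its guide. The 5p share was 86.9%, 91.2% and 87.0% in r1, r2 and r4, against 96.2%, 96.9% and 96.4% in m1, m3 and m4, with no overlap between the species. The 5p arm had 6.62 to 10.4 times the counts of the 3p arm in rat libraries and 25.4 to 31.3 times in mouse libraries. Because miR-130b-5p was chosen for its counts, these shares carry no test. How many of all hairpins had arm shares without overlap was not computed, so nothing is read from the separation. For miR-301b the counts were too few to order the arms: 44.4% of 9 counts in rat and 36.0% of 50 counts in mouse were 5p (exact 95% binomial intervals 13.7% to 78.8% and 22.9% to 50.8%).

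**Figure D4:**
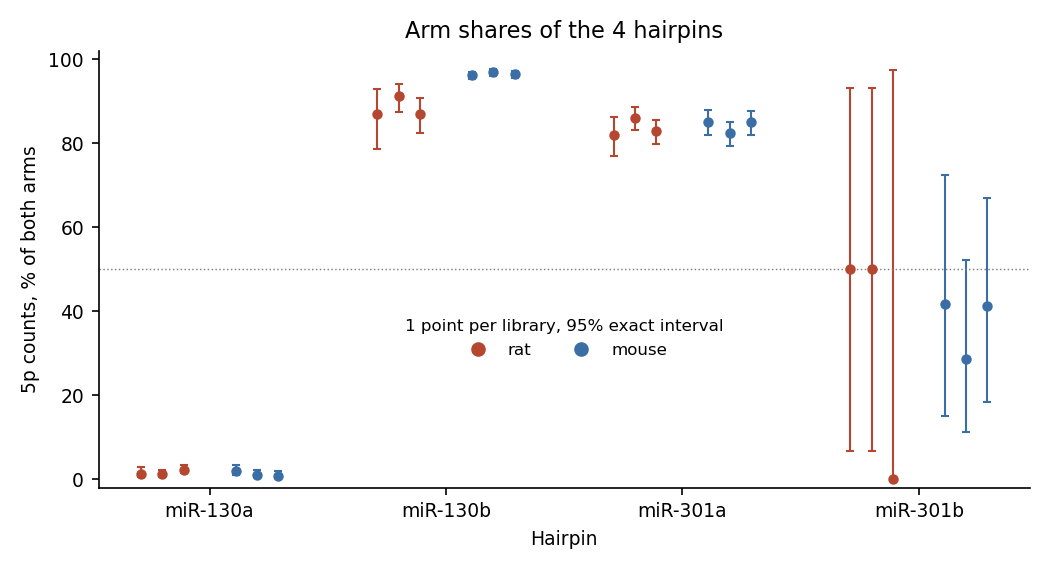
Share of the 5p arm in the counts of both arms of each hairpin, in percent, with 1 point per library, exact 95% binomial intervals, and rat left of mouse. The miR-130a points lie near 0%, the miR-301a points between 81.9% and 86.0%, and the miR-130b points between 86.9% and 91.2% in rat and between 96.2% and 96.9% in mouse.

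The arm balance of miR-130b lay further toward 3p in rat than in mouse, by a log2 difference of -1.86 ± 0.25 (SE), or -1.74 without rat library r1. Among the 169 hairpins with at least 50 counts over both arms in every library, 19 (11.2%) had a larger difference in either direction, 8 of them toward 3p, and the median size was 0.59. The balance of miR-130a differed by 0.36 ± 0.37 and that of miR-301a by -0.05 ± 0.21 (SE; 0.036 without r1), both within the median size over all hairpins.

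**Figure D5:**
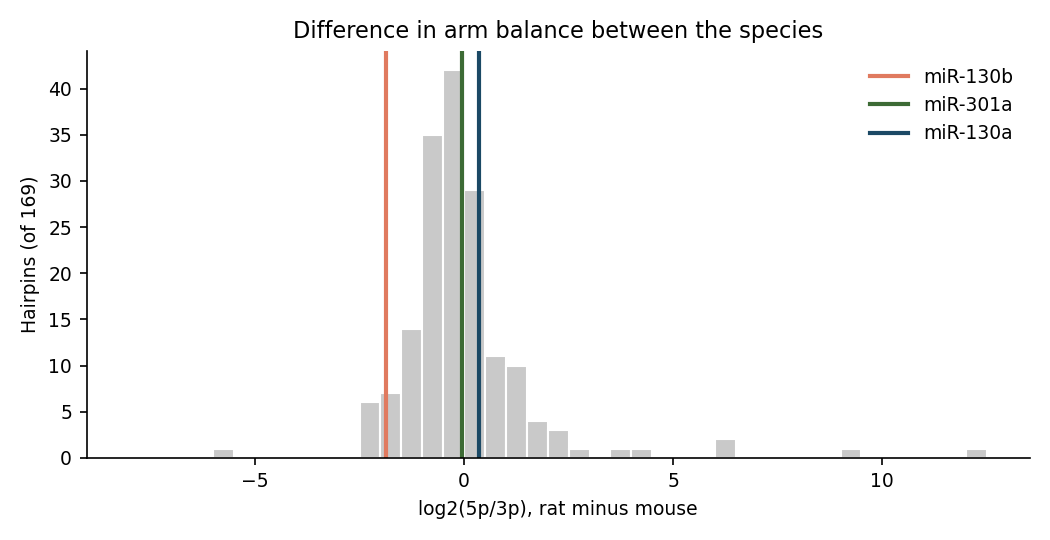
Number of hairpins by difference in log2(5p/3p), rat minus mouse, with lines at the 3 family hairpins that had enough counts. The line of miR-130b lies at -1.86, with 8 hairpins further toward 3p, and those of miR-301a (-0.05) and miR-130a (0.36) lie near the middle of the distribution.

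Other names with the family seed were miR-721, miR-6341 and miR-6389, which are named in the mouse table only and had 0 counts in every mouse library. The 5 miRNAs whose levels over the 6 libraries lay closest to the pattern of miR-130b-5p, by Euclidean distance of log2(CPM + 1) centred on each miRNA's mean, were miR-484, miR-1843b-3p, miR-298-5p, miR-501-3p and miR-296-3p. Their distances ran from 0.40 to 0.81, beside a median of 4.35 over the 272 miRNAs compared. Their log2 differences, rat minus mouse, ran from -4.24 (miR-296-3p) to -3.12 (miR-298-5p). The pattern includes the difference for which miR-130b-5p was chosen, so nothing is read from this closeness. The closest, miR-484, whose precursor is made without the nuclear enzyme Drosha, stood at 45.0 ± 8.04 CPM in rat and 408 ± 13.4 CPM in mouse (SD, n = 3 each). The imprinted Gnas-locus miRNA miR-298-5p stood at 7.40 ± 1.49 CPM in rat and 64.5 ± 2.07 CPM in mouse (SD, n = 3 each). Closest to miR-130a-3p were miR-136-5p and miR-376b-5p, both from the imprinted Dlk1-Dio3 locus, and the inflammation-linked miR-146b-5p, with distances of 0.19 to 0.22, beside a median of 0.96 over the same 272 miRNAs.

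Vascular and blood miRNAs were looked at because miR-130a is also found in endothelial and blood-forming cells. All 9 vascular and mesenchymal markers had counts in both species, and they summed to 7927 to 8343 CPM of the whole table in rat libraries and 4450 to 5318 in mouse libraries. Of the 8 with a common name, 2 were called higher and 2 lower, beside 25.6% higher and 24.4% lower over all miRNAs, with a median log2 difference of -0.09. The most abundant in both species were miR-143-3p of smooth muscle and pericytes and endothelial miR-126a-3p. Levels of miR-143-3p were 5862 ± 597 CPM of the whole table in rat and 2862 ± 241 in mouse (SD, n = 3 each). Endothelial miR-126a-3p stood at 1838 ± 465 in rat and 1726 ± 170 in mouse on the same scale (SD, n = 3 each). The 2 called higher were miR-143-3p and miR-222-3p. The 2 called lower were both arms of miR-199a, a miRNA of mesenchymal cells, with miR-199a-3p at 48.0 ± 20.8 in rat and 88.8 ± 8.43 in mouse (SD, n = 3 each) and log2 differences of -1.18 for the 3p and -0.93 for the 5p arm. The 9 blood markers summed to 205 to 375 CPM in rat libraries and 156 to 170 in mouse libraries, led in both species by miR-486 and miR-150-5p. Of the 5 that could be fitted by a common name, 0 were called higher and 2 lower, beside the same 25.6% and 24.4% over all miRNAs (median log2 difference -0.64). The 2 were miR-144-5p, with only 0 to 7 counts in rat libraries and 16 to 17 in mouse libraries, and miR-155-5p. Of the red-cell markers, 2 whose names differ between the tables, and which were not fitted, lay in opposite directions: miR-486 stood at 237 ± 67.9 CPM of the whole table in rat and 94.7 ± 4.89 in mouse, whereas miR-451 stood at 2.01 ± 1.46 in rat and 10.7 ± 1.34 in mouse (SD, n = 3 each). No marker of either list was at 0 in all libraries of a species. The part of these cells in the family's levels was not tested.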

How the data were processed

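The deposited values are unnormalised read counts for each mature miRNA name, in a separate table for each species, per the file headers. Per the labels' protocols these came from Illumina small RNA libraries read as 50-base single-end reads. The aligner, the miRNA release and the handling of reads that match more than 1 name are not stated in the sources read here. Columns carry numbers that differ from those of the labels, so each was assigned to its species only, and left-out libraries are named by column. Names were joined without the species prefix. Abundance was fitted with edgeR 4.0.16 in R 4.3.3 (filterByExpr, TMM, quasi-likelihood test, species as the only term, 398 miRNAs); SE is the log2 difference over the root of F. Arm balance was log2((5p + 0.5)/(3p + 0.5)) in limma 3.58.1 for hairpins with at least 50 counts over both arms in every library. Adjusted p is Benjamini-Hochberg, called under 0.05. DESeq2 1.42.0, other totals, no filter, a pseudocount of 5, a minimum of 10 and leaving out each library were alternatives.

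The family, marker lists and tests were chosen with earlier results of these data known. Named beside the family, by rule, were the 5 miRNAs closest in pattern to miR-130b-5p among those averaging at least 10 CPM. The 3 closest to miR-130a-3p and rows with the family seed were also named by rule. So were up to 5 hairpins with a larger arm difference than miR-130b. From the vascular and blood lists the rule allowed the 4 most abundant, while the retinal list was given whole. Both arms of miR-199a and of miR-144, and miR-155-5p, were named after their values were seen. Rat names miR-182, miR-9a-5p, miR-145-5p, miR-451-5p, miR-486 and miR-142 stood for the mouse names miR-182-5p, miR-9-5p, miR-145a-5p, miR-451a, miR-486a-5p and miR-142a. On simulated counts of 398 miRNAs with 200 changed, the abundance test found 85.9% of 2-fold and 99.7% of 4-fold changes, and 2.80% of its calls were false.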

Additional observations from a re-analysis of the deposited data

How the results depend on the processing

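In all, 148 values were recomputed under other settings, of which 135 counted as unchanged. An effect or share counted if it kept its direction and stayed within the spread of the libraries or on its side of the threshold. Numbers of miRNAs or hairpins called were judged by a wide fold limit instead, under which 293 calls counted as unchanged beside 199. Of the 148 values, 10 moved further than the limit and 3 reversed direction. Under totals of the shared names and of the whole tables, every fitted member except miR-130a-5p moved or reversed, miR-130b-5p among those that moved. The count of unchanged values therefore does not describe the choice of scaling. The log2 difference of miR-130b-5p was -3.17 with totals of the shared names and -3.27 with totals of the whole tables, and between -3.74 and -3.39 when 1 library was left out. That of miR-130b-3p was -1.37 and -1.48 under these totals, and that of miR-130a-3p 0.41 and 0.30. With totals of the shared names the log2 differences of miR-301a-3p and miR-301a-5p turned to 0.078 and 0.062. The arm balance of miR-130b, rat minus mouse, ran from -2.08 to -1.74 when 1 library was left out, and that of miR-301a from -0.19 to 0.036, above 0 without r1. As CPM of the shared names without TMM scaling, the 3p sum was 49.9 in rat and 41.6 in mouse. The number of miRNAs called, 199, ran from 153 (without m3) to 293 (without r1). Within a species, miR-130a and miR-301a kept their more abundant arm and an adjusted p under 0.05 (limma) in every setting run. The cause of these shifts was not tested. No paired analysis was possible because no label links a rat library with a mouse library. Counts of miR-301b were too few for any statement on its arms.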

Other observations

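Hairpins in which both arms were lower in rat by more than 1 on the log2 scale numbered 7 of the 140 with both arms fitted. Beside miR-130b they were miR-144 of red blood cells (-2.24 for 5p and -1.03 for 3p), miR-190b (-1.55 and -7.76), miR-296 (-2.63 and -4.24), miR-370 (-1.88 and -1.82), miR-501 (-3.34 and -3.24) and miR-92b (-1.66 and -1.12). They were chosen after their values were seen, and no test was made of the group. Counts of miR-144 were few: the 5p arm had 0 to 7 in rat libraries and 16 to 17 in mouse libraries. Its 3p arm had 4 to 24 in rat and 19 to 22 in mouse, and was not called.

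The 5 hairpins with the largest differences in arm balance between the species, rat minus mouse on the log2 scale, were miR-344b (12.16), miR-185 (9.35), miR-381 (6.38), miR-190b (6.20) and miR-298 (-5.80). The miR-130b hairpin was at position 20 by size.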
